A study of Danio rerio with 16 samples.

Results

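The BTG and TOB genes encode a small family of antiproliferation proteins. The members were the rows named btg1, btg2, btg3, btg4, tob1a or tob1b in 3 tables of read counts per gene, and 5 of these 6 genes were found, of 26183 genes in all. btg4 was not analysed here. Which values put the family forward is not recorded. It is treated here as chosen by the btg2 level at 1 µg/L, which was known to be low, and other values may have been seen too. All 5 had enough reads to be tested, as did 19092 genes in total. The counts came from RNA sequencing of zebrafish (Danio rerio) larvae that were 7 days old and had been kept for 7 days in PFBA, perfluorobutanoic acid, which belongs to the short-chain perfluorinated compounds. The control group of 4 libraries was given only dimethyl sulfoxide, the solvent, and there were 3 libraries of larvae exposed to 0.1 µg/L PFBA, 4 exposed to 1 µg/L and 5 exposed to 10 µg/L. The labels name no strain and no genetic change. The labels do not say whether libraries came from separate clutches or pools of larvae, so p-values measure the spread between these libraries only. Libraries are called by the number in their deposited column, which is 1, 3, 4 and 5 in control and 1, 2, 4 and 5 at 1 µg/L.

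Proteins of this family share an N-terminal BTG domain, which binds the CAF1 subunits (Cnot7 and Cnot8) of the CCR4-NOT complex, the main cytoplasmic machine that shortens poly(A) tails. Through this contact they speed the decay of messenger RNA, and in mammalian cells they restrain entry into the cell cycle. Tob proteins also bind the poly(A)-binding protein, which brings the deadenylase to polyadenylated transcripts. In mammals Btg2 is an early-response gene, induced within minutes to hours by growth factors and neuronal activity, whereas Btg1 is linked to quiescence and lymphoid cells and Btg4 to the clearance of maternal transcripts in oocytes.

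Libraries held 9708464 to 13862232 counted reads, and levels are given as CPM, read counts scaled to a common library size. Libraries 1 and 2 at 0.1 µg/L stood apart: their scores on principal component 1 were 174.7 and 101.2, against -43.8 to 9.01 in the other 14. The summed level of 7 skeletal muscle markers was 104500 and 68170 CPM in these libraries and 30180 CPM in library 3 at 0.1 µg/L, against 6300 to 35550 CPM in control libraries. Libraries 1 and 2 were also the highest of all 16 in summed markers of liver (3361 and 2569 CPM), lens (7361 and 4658 CPM) and epidermis (6261 and 3682 CPM). Their factors by the trimmed mean of M values (TMM), which scale library sizes, were 0.581 and 0.742, against 0.928 to 1.14 in the other 14. All listed markers of liver, lens, photoreceptors and neurons were detected in every library. The 11 oocyte and germ cell markers found in the tables, of 12 listed, summed to at most 7.16 CPM in any library. The 5 lymphocyte markers found, of 7 listed, summed to at most 7.67 CPM.

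Levels per length set the members apart in control larvae. The library sizes behind CPM were scaled by TMM, and dividing by gene length gives CPM per kilobase. tob1b stood at 206 ± 36.1 and tob1a at 193 ± 34.8 CPM per kilobase, followed by btg1 at 158 ± 14.2, btg2 at 78.3 ± 10.0 and btg3 at 17.2 ± 3.33 (SD, n = 4). The control ranges of tob1b and tob1a overlapped, as did those of tob1a and btg1, while every control value of btg2 lay below these and every value of btg3 below btg2. In this order of level per length, tob1b, tob1a and btg1 were higher than 98.7%, 98.6% and 98.3% of the genes tested, btg2 higher than 96.7% and btg3 than 82.8%.

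In the GRCz11 assembly btg2 (ENSDARG00000020298) lies on chromosome 22 from 336256 to 339623 on the plus strand. The others are on the minus strand: btg1 (ENSDARG00000027249) on chromosome 4 from 16536173 to 16545085, btg3 (ENSDARG00000069065) on chromosome 10 from 28370816 to 28380928, tob1a (ENSDARG00000032619) on chromosome 3 from 18185616 to 18189283 and tob1b (ENSDARG00000021372) on chromosome 12 from 847187 to 850457. The 5 genes are annotated as protein coding, and the counts do not separate exons or UTRs. tob1a shares 1954 bases with the gene BX649434.1 on the same strand, which had 0 to 9 reads per library. How reads that match both tob1a and its paralog tob1b were counted is not given in the sources used here.

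**Figure D1:**
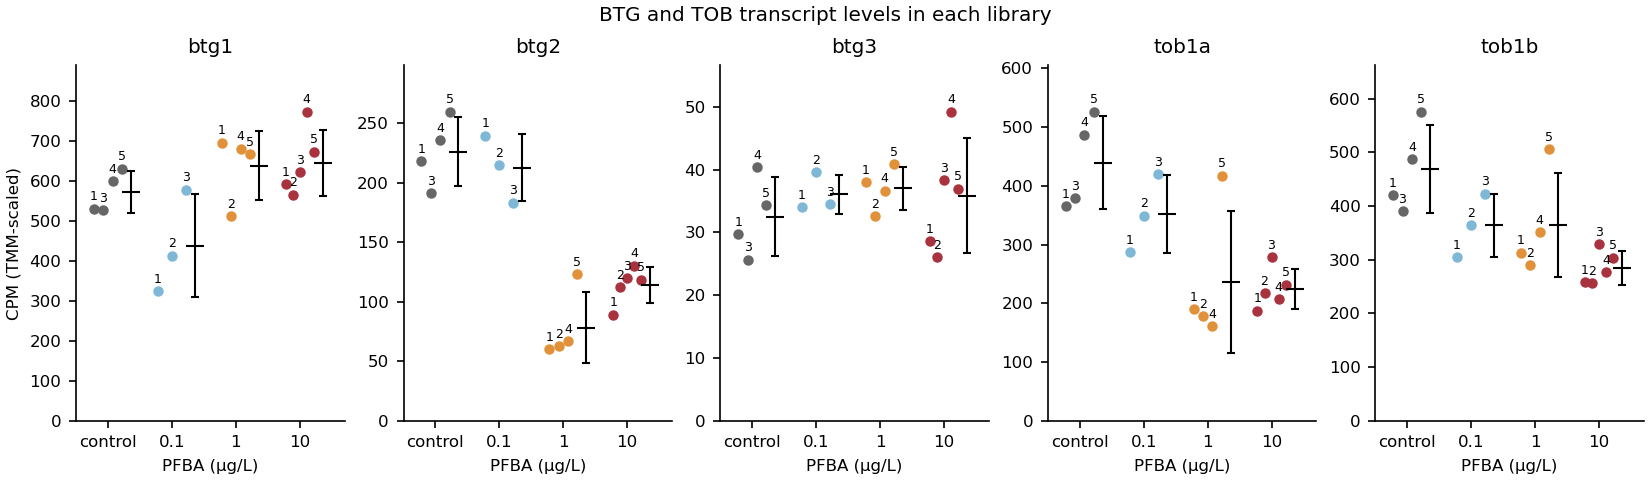
Level of each BTG and TOB gene (CPM on TMM-scaled library sizes, vertical axis from 0) in each library, by PFBA concentration from control to 10 µg/L. Points are libraries with their number, and the bar beside each group is the mean ± SD (n = 4, 3, 4 and 5). The 5 libraries at 10 µg/L lie below all 4 control libraries for btg2, tob1a and tob1b, and library 5 at 1 µg/L lies above the others of its group for the same genes.

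btg2, the early-response member, was lower at 1 and at 10 µg/L and close to control at 0.1 µg/L. In CPM it was at 218, 191, 236 and 260 in control libraries 1, 3, 4 and 5, at 239, 215 and 183 at 0.1 µg/L, at 60.4, 62.7, 67.0 and 123 at 1 µg/L, and at 89.1, 112, 120, 130 and 119 at 10 µg/L. No library at 1 or 10 µg/L reached the lowest control library or the lowest library at 0.1 µg/L. The share of all genes set apart from the 0.1 µg/L libraries in this way was not counted. The group means were 226 ± 29.0 CPM in control (SD, n = 4), 213 ± 28.1 CPM at 0.1 µg/L (n = 3), 78.3 ± 29.9 CPM at 1 µg/L (n = 4) and 114 ± 15.4 CPM at 10 µg/L (n = 5). The ranges at 1 and 10 µg/L overlapped, through library 5 at 1 µg/L, and so did those at 0.1 µg/L and control.

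Because this level at 1 µg/L is treated as having chosen the family, the difference of -1.53 on the log2 scale (2.89-fold lower than control) is a description without a test. Of all genes tested 0.0524% were called lower than control at 1 µg/L, and in 2.65% the 1 µg/L libraries all lay below the control libraries, as they did for btg2 alone among the 5 members. At 10 µg/L btg2 fell 1.98-fold (log2 fold change -0.99, SE 0.19, 95% interval -1.40 to -0.58, edgeR adjusted p = 0.0456, lower in 5 of 5 libraries). By edgeR it was the one member of 5 called there, where 0.141% of all genes tested were called lower and 0.0838% higher. This comparison uses the same 4 control libraries as the one at 1 µg/L, which is treated as having chosen the family. The btg2 call at 10 µg/L and this count of members are therefore no independent support. The 6 lens markers summed to 2201 to 4568 CPM in the 10 µg/L libraries, above the 1395 to 2168 CPM of control. Every other marker list overlapped between these groups, and lens is named here with those values known. In libraries 1, 2 and 3 at 0.1 µg/L the lens markers summed to 7361, 4658 and 2552 CPM. At 1 µg/L they summed to 2449 to 2740 CPM in libraries 1, 2 and 4 and to 1334 CPM in library 5. Muscle markers varied within groups, at 27360, 35550, 15730 and 6300 CPM in control libraries 1, 3, 4 and 5. They were at 26230, 28610, 44440 and 11850 CPM in libraries 1, 2, 4 and 5 at 1 µg/L. At 10 µg/L they were at 22890, 9119, 4462, 26880 and 18830 CPM in libraries 1 to 5. The part of lens, muscle and other markers in the btg2, tob1a and tob1b levels was not tested. The btg2 call at 10 µg/L was made in 12 of 25 alternative settings. It ended with scaling by library size only (edgeR adjusted p = 0.0646), with the replicate number as a block (edgeR adjusted p = 0.0869) and when single libraries were left out. With a control library dropped, the edgeR adjusted p was 0.112 (library 1), 0.073 (library 3), 0.13 (library 4) or 0.119 (library 5). With a 10 µg/L library dropped it was 0.0928, 0.141, 0.0995, 0.0881 or 0.0915, in the order of libraries 1 to 5. Dropping library 2 at 0.1 µg/L gave 0.0793 and dropping library 4 at 1 µg/L 0.0558 by edgeR, while the log2 fold change stayed between -1.06 and -0.91. DESeq2 gave an adjusted p of 0.00141 and limma-voom of 0.0276, and in the authors' deposited table the log2 fold change was -0.97 with an adjusted p of 4.87e-07. That table had 390 of 25531 genes (1.53%) at an adjusted p below 0.05 at 10 µg/L, against 0.225% of genes by edgeR here.

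The log2 fold change of btg2 at 0.1 µg/L was -0.09 (SE 0.22, edgeR adjusted p = 0.822). It was -0.28 with library 3 alone, with libraries 1 and 2 left out and the lone library assumed to vary like the other groups, and 0.01 without library 3. Scaling by library size only gave -0.56 (edgeR adjusted p = 0.178).

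tob1a, one of the zebrafish co-orthologs of mammalian TOB1, was lower in most libraries at the higher concentrations. In CPM it was at 365, 379, 487 and 526 in control libraries 1, 3, 4 and 5, at 286, 349 and 420 at 0.1 µg/L, at 190, 178, 161 and 417 at 1 µg/L, and at 187, 217, 279, 207 and 232 at 10 µg/L. All 5 libraries at 10 µg/L lay below every control library and every library at 0.1 µg/L. At 1 µg/L libraries 1, 2 and 4 did so too, while library 5 lay within the control range. How many of all genes lay below the 0.1 µg/L libraries was not counted, and libraries 1 and 2 of that group stood apart. Its group means were 439 ± 79.3 CPM in control (SD, n = 4), 352 ± 67.0 CPM at 0.1 µg/L (n = 3), 237 ± 121 CPM at 1 µg/L (n = 4) and 224 ± 34.4 CPM at 10 µg/L (n = 5). The ranges of neighbours in this order overlapped.

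The log2 fold change of tob1a at 10 µg/L was -0.97 (SE 0.24, 95% interval -1.48 to -0.46), which is close in size to that of btg2 but did not pass over all genes (edgeR adjusted p = 0.131). It passed in a fit of these 2 groups alone (edgeR adjusted p = 0.0118), in DESeq2 (adjusted p = 0.0228) and without library 5 at 1 µg/L (edgeR adjusted p = 0.00689). These were 3 of 25 alternative settings, and it did not pass in the others, with an adjusted p of up to 0.332. The authors' deposited table, where 1.53% of genes passed at 10 µg/L, gives an adjusted p of 3.37e-05 for it. At 1 µg/L the log2 fold change was -0.89 (SE 0.26, edgeR adjusted p = 0.545), and without library 5 of that group it was -1.31 with an edgeR adjusted p of 0.00246. The 0.1 µg/L value was -0.32 (SE 0.28, edgeR adjusted p = 0.494). It rested on the libraries that stood apart, being -0.17 without library 1 and -0.04 without libraries 1 and 2, and it was -0.69 with library size only.

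tob1b, the other tob1 gene, had its lowest mean at 10 µg/L. In CPM it was at 420, 391, 487 and 576 in control libraries 1, 3, 4 and 5, at 304, 364 and 423 at 0.1 µg/L, at 313, 290, 351 and 506 at 1 µg/L, and at 258, 256, 329, 277 and 304 at 10 µg/L. The 10 µg/L libraries again lay below every control library, but they overlapped with both other exposed groups. The means of tob1b were 469 ± 82.1 CPM in control (SD, n = 4), 364 ± 59.3 CPM at 0.1 µg/L (n = 3), 365 ± 97.1 CPM at 1 µg/L (n = 4) and 285 ± 31.4 CPM at 10 µg/L (n = 5). The log2 fold change at 10 µg/L was -0.72 (SE 0.18, edgeR adjusted p = 0.118), which passed in the fit of these 2 groups alone (0.0428), in DESeq2 (0.016) and without library 5 at 1 µg/L (0.0407). Here too 3 of 25 alternative settings made the call, and the adjusted p ran up to 0.393 in the others. The authors' deposited table gives tob1b a log2 fold change of -0.70 at 10 µg/L, with an adjusted p of 0.00253. In that comparison 1.53% of the authors' genes passed. For the 0.1 µg/L group the edgeR log2 fold change was -0.36 (edgeR adjusted p = 0.294), but -0.23 without library 1, -0.12 without libraries 1 and 2 and -0.74 with library size only. For the 1 µg/L group it was also -0.36 (edgeR adjusted p = 0.998), but -0.56 without library 5. With btg2 and tob1a it made 3 of 5 members whose 10 µg/L libraries all lay below the control libraries, where 2.83% of all genes tested did. The 3 include btg2, whose level at 1 µg/L is treated as having chosen the family. The same 4 control libraries entered that choice, so this count is a description. None of the 5 had all its 10 µg/L libraries above control, where 2.32% of genes did. Between the 0.1 µg/L and control libraries every member overlapped, where 5.16% of genes lay wholly below control and 3.57% wholly above, and no member lay wholly above control at 1 µg/L, where 2.8% did.

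btg1, the most abundant member in CPM, was not lower at the higher concentrations. In CPM it was at 531, 528, 600 and 631 in control libraries 1, 3, 4 and 5, at 324, 413 and 578 at 0.1 µg/L, at 696, 511, 680 and 666 at 1 µg/L, and at 593, 566, 622, 773 and 673 at 10 µg/L. Libraries 1 and 2 at 0.1 µg/L were the lowest of all 16, and every pair of groups overlapped. Mean levels were 572 ± 51.4 CPM in control (SD, n = 4), 438 ± 129 CPM at 0.1 µg/L (n = 3), 638 ± 85.5 CPM at 1 µg/L (n = 4) and 645 ± 81.9 CPM at 10 µg/L (n = 5).

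The log2 fold change of btg1 was 0.17 at 10 µg/L (95% interval -0.19 to 0.54) and 0.16 at 1 µg/L (95% interval -0.22 to 0.54), where edgeR gave adjusted p = 0.91 and 0.998. For the 0.1 µg/L group it was -0.39 (SE 0.20, edgeR adjusted p = 0.257). This value rested on the libraries that stood apart: without libraries 1 and 2 the log2 fold change was 0.04, and without library 3 it was -0.63 with an edgeR adjusted p of 0.0141. With library size only it was -0.72. The muscle markers were highest in libraries 1 and 2, as given above, and so were those of liver, lens and epidermis. The part of these markers and of the TMM factors in the btg1 level was not tested.

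btg3, whose mammalian counterpart binds and inhibits the cell cycle factor E2F1, was the least abundant. Its level ran from 25.7 to 40.4 CPM in control, 34.1 to 39.6 CPM at 0.1 µg/L, 32.6 to 40.9 CPM at 1 µg/L and 26.0 to 49.2 CPM at 10 µg/L. The 4 ranges overlapped. The log2 fold changes at 0.1, 1 and 10 µg/L were 0.15, 0.19 and 0.14, and edgeR gave adjusted p = 0.677, 0.998 and 0.951. The 95% interval at 10 µg/L was -0.25 to 0.52.

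**Figure D2:**
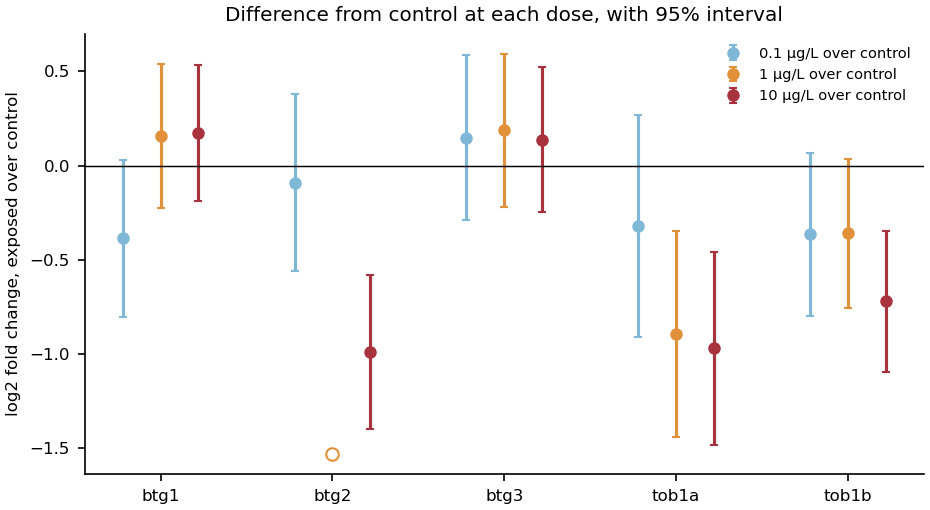
Log2 fold change of each BTG and TOB gene over control at 0.1, 1 and 10 µg/L PFBA, with bars for the 95% interval from the edgeR fit of all 16 libraries. The open point is btg2 at 1 µg/L (-1.53), which was known when the family was chosen and is drawn without an interval. At 10 µg/L btg2, tob1a and tob1b lie at -0.99, -0.97 and -0.72, and btg1 and btg3 at 0.17 and 0.14.

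At 1 µg/L 0 of the other 4 members passed, beside 0.0681% of all genes called in either direction and 934 genes at an unadjusted p below 0.05. Likewise 0 of 5 members passed at 0.1 µg/L, as did 0% of all genes by edgeR and by limma-voom, with 4157 genes at an unadjusted p below 0.05 and 1432 genes called by DESeq2. The median log2 fold change over all genes tested was -0.09 at 0.1 µg/L, -0.02 at 1 µg/L and -0.02 at 10 µg/L. In RNA from larvae with many cell types, fewer cells of a type and less RNA per cell cannot be told apart.

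Ratios of read counts between members of 1 library do not depend on how libraries are scaled. These ratios were chosen after the levels were seen and are given without a test. The ratio of tob1a to tob1b was 0.87, 0.97, 1.00 and 0.91 in control libraries 1, 3, 4 and 5 and 0.94, 0.96 and 0.99 at 0.1 µg/L. At 1 µg/L it was 0.61, 0.61, 0.46 and 0.82, and at 10 µg/L 0.73, 0.85, 0.85, 0.75 and 0.76. All 9 libraries at 1 and 10 µg/L thus held fewer tob1a reads per tob1b read than any control library. The gap was small at 10 µg/L, where libraries 2 and 3 were at 0.85 against 0.87 in control library 1. How many other pairs of genes have ratios set apart in this way was not counted, for this ratio or the next. The ratio of btg2 to btg1 was 0.12 ± 0.04 at 1 µg/L (SD, n = 4) and 0.18 ± 0.02 at 10 µg/L (n = 5), against 0.39 ± 0.02 in control (n = 4). The 0.1 µg/L libraries were spread, at 0.74 and 0.52 in libraries 1 and 2, above the control range of 0.36 to 0.41, and 0.32 in library 3, below it.

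**Figure D3:**
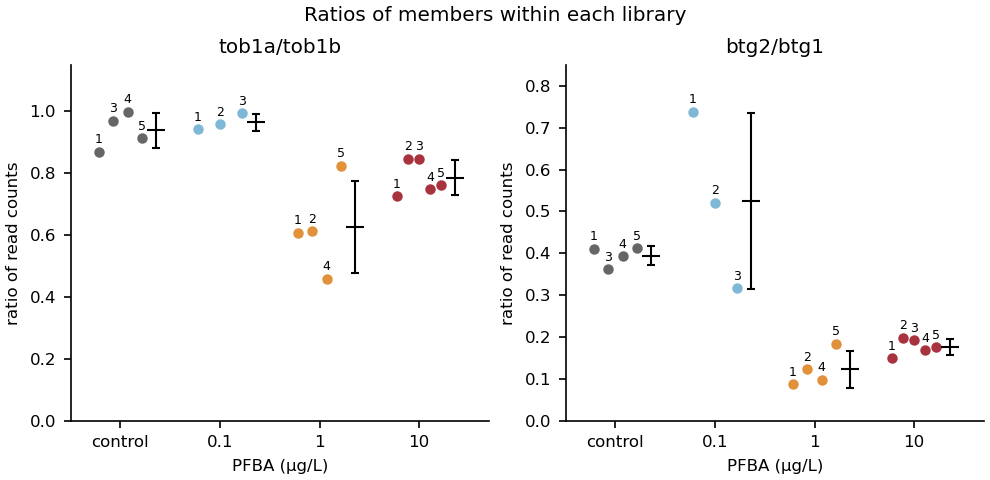
Ratio of read counts of tob1a to tob1b (left) and of btg2 to btg1 (right) in each library, by PFBA concentration, with the vertical axis from 0. Points are libraries with their number and bars are the mean ± SD. Both ratios are lower in every library at 1 and 10 µg/L than in every control library, with group means of 0.63 and 0.79 against 0.94 for tob1a to tob1b. The share of gene pairs set apart in this way was not counted.

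Library 5 at 1 µg/L differed from the other 3 of its group in some members and not in others. It was 2.36 times the mean of libraries 1, 2 and 4 for tob1a, 1.94 times for btg2 and 1.59 times for tob1b, but 1.14 times for btg3 and 1.06 times for btg1. Without it the 1 µg/L mean of btg2 was 63.4 ± 3.36 CPM (SD, n = 3), and the level in library 5 was still below every control library. The clock repressor gene nr1d1, which encodes Rev-erb alpha, was at 617 CPM in library 5 and at 24.3, 26.5 and 19.0 CPM in libraries 1, 2 and 4, against 547 to 762 CPM in control. It was at 546, 558 and 657 CPM at 0.1 µg/L and at 29.9 to 52.3 CPM in the 10 µg/L libraries. The period gene per1a was at 91.7 CPM in library 5 and at 4.42, 5.10 and 3.90 CPM in libraries 1, 2 and 4. Its level was 65.3 to 87.0 CPM in control, 2.16 to 9.45 CPM at 10 µg/L, and 15.9, 22.9 and 80.1 CPM at 0.1 µg/L. These genes were named after their values were seen, and their part in the member levels was not tested.

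The profile of btg2 over the 16 libraries was set beside 12952 other named genes of at least 2 CPM. Likeness was measured as the mean absolute difference in log2 CPM per library, after each gene was centred on its own mean, and is a description of libraries that share groups and depth. btg2 itself departed from its mean by 0.60 log2 units on average. The closest genes were ier2a, an immediate early response gene, at a mean difference of 0.15, and socs3a, a feedback inhibitor of cytokine signalling, at 0.21. They were followed by ddit4, a stress-induced inhibitor of mTORC1 (0.22), the COPII coat gene sec23b (0.22), the AP-1 gene junbb (0.23), the adhesion receptor gene adgrb1b (0.25), the protein kinase gene mapkapk2b (0.25) and the early growth response gene egr4 (0.26). With libraries 1 and 2 at 0.1 µg/L left out, ier2a stayed closest and 5 of these 8 genes were again among the closest 8, namely ier2a, socs3a, ddit4, sec23b and egr4. In that set of 14 libraries tob1a was itself the eighth closest gene to btg2, at 0.25.

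ier2a averaged 32.4 ± 16.4 CPM at 1 µg/L (SD, n = 4) and 43.2 ± 9.93 CPM at 10 µg/L (n = 5), against 72.9 ± 15.6 CPM in control (n = 4). Like btg2 and tob1a it was highest in library 5 within the 1 µg/L group, at 56.9 CPM. For sec23b library 5 lay within its group, at 22.3 CPM, where libraries 1, 2 and 4 held 21.2, 23.8 and 17.4 CPM.

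Over all 16 libraries the genes closest to tob1a were different ones. nr1d2b, a Rev-erb beta gene of the circadian clock, came first at a mean difference of 0.12, where tob1a departed from its own mean by 0.48 log2 units. sik1, a salt-inducible kinase gene, followed at 0.14 and ankha, the gene of a pyrophosphate transporter, at 0.15. nr1d2b was at 285, 293, 247 and 733 CPM in libraries 1, 2, 4 and 5 at 1 µg/L, so library 5 was far above the others, as it was for tob1a. nr1d2b and sik1 were again the closest when libraries 1 and 2 at 0.1 µg/L were left out. The next closest to tob1a was then nfkbiab, at 0.13, which in that set was also among the genes closest to btg2, at 0.23. For tob1b the closest were ccdc141 (0.12), nr4a3 (0.13), an orphan nuclear receptor gene, and cry1b (0.13), a cryptochrome gene, where tob1b departed from its mean by 0.29. Of these 3, ccdc141 alone was again among the closest 3 without libraries 1 and 2 at 0.1 µg/L.

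**Figure D4:**
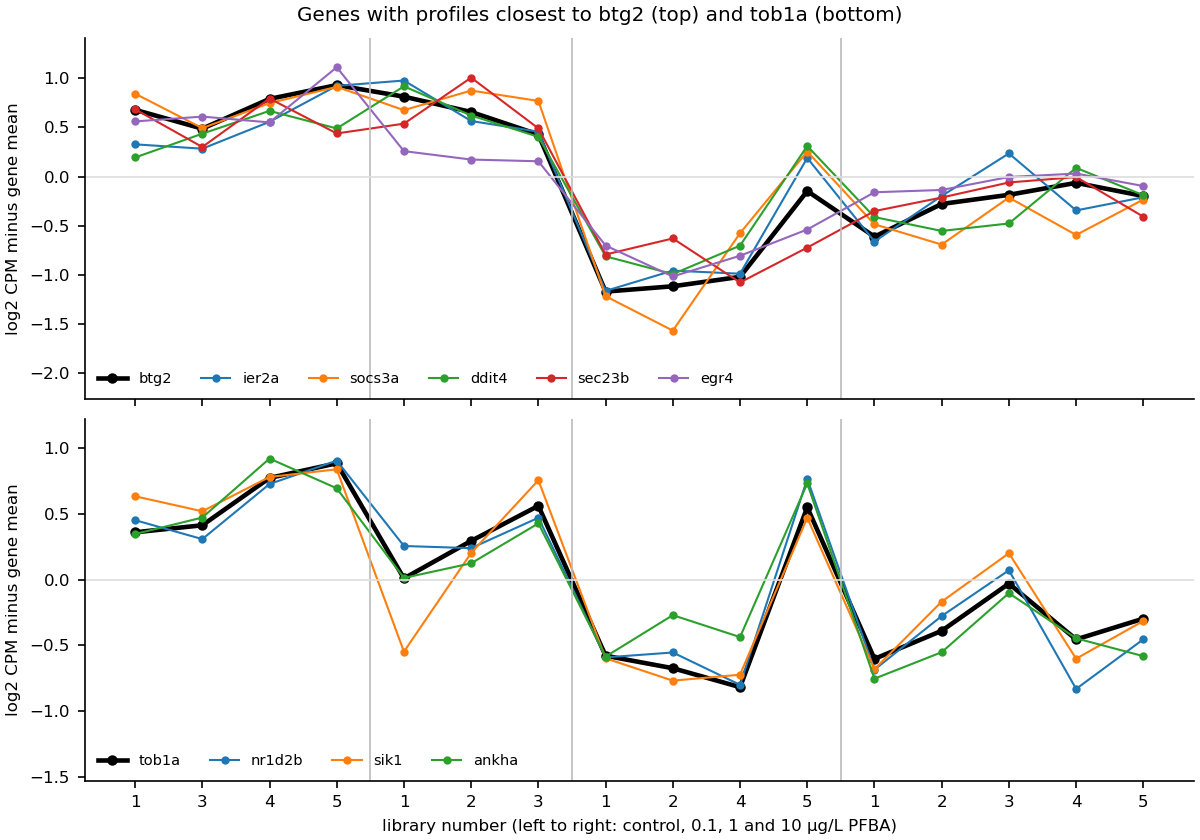
Log2 CPM of each gene minus its mean over the 16 libraries (vertical axes), for btg2 and 5 of the genes closest to it (top) and for tob1a and the 3 closest to it (bottom). Libraries run left to right from control through 0.1 and 1 to 10 µg/L, with grey lines between groups and library numbers below. Library 5 at 1 µg/L is high in tob1a, nr1d2b, sik1 and ankha, where nr1d2b reached 733 CPM.

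btg1 and btg3 varied little, so likeness says less about them. The closest genes to btg1 were the calcineurin gene ppp3cb (0.07), the ribosomal RNA transcription factor gene ubtf (0.07) and ubap2l (0.08), where btg1 departed from its mean by 0.22. None of them was among the closest once libraries 1 and 2 at 0.1 µg/L were left out. For btg3 the closest were sp5l, ptp4a2b and ppp1r37, at 0.12 each, where btg3 departed from its mean by 0.19, and 0 of these 3 were among its closest without the same libraries.

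No tested partner of these proteins in poly(A) tail shortening passed. Of 18 measured genes of the CCR4-NOT and PAN2-PAN3 deadenylases and the poly(A)-binding proteins, from 20 listed, 0 passed at any concentration. The share of all genes tested that was called was 0% at 0.1 µg/L, 0.0681% at 1 µg/L and 0.225% at 10 µg/L. With shares this small, 0 of 18 does not set the list apart. The median log2 fold changes were 0.31 at 0.1 µg/L, 0.18 at 1 µg/L and 0.10 at 10 µg/L. Of the CAF1 genes, cnot7 was not among those tested. cnot8 was at log2 fold changes of 0.08, 0.14 and 0.21 at 0.1, 1 and 10 µg/L (edgeR adjusted p = 0.813, 0.998 and 0.832). At 10 µg/L the lowest unadjusted p-values belonged to pan2, the nuclease subunit of PAN2-PAN3, at 48.9 ± 5.73 CPM (SD, n = 5) against 36.6 ± 2.86 CPM in control (n = 4), and to the deadenylase gene cnot6l, at 16.3 ± 2.46 against 25.1 ± 6.92 CPM (edgeR adjusted p = 0.368 and 0.384). In the 1 µg/L group they belonged to pan2 and cnot3a, with log2 fold changes of 0.35 and 0.26 (edgeR adjusted p = 0.998 each). To the digits kept, cnot4a tied with cnot3a (edgeR unadjusted p = 0.038), at a log2 fold change of 0.51. cnot9 and pabpc1b, a poly(A)-binding protein gene, were at 0.72 and 0.68 at 0.1 µg/L (edgeR adjusted p = 0.0864 and 0.0869). Their levels there were 52.5 ± 15.7 and 296 ± 85.8 CPM (SD, n = 3), against 31.8 ± 2.31 and 184 ± 30.3 CPM in control. Libraries 1 and 2 at 0.1 µg/L stood apart, and their part in the 0.1 µg/L values of this and the following lists was not tested.

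The next list covered early genes first cloned with Btg2 as sequences induced by phorbol ester in mouse fibroblasts, and some of their relatives. Of 11 listed genes 10 were measured. zfp36 was listed but not found, while the related genes zfp36l1a, zfp36l1b and zfp36l2 were among the 10. At 10 µg/L 2 of 10 fell and 8 did not pass, with a median log2 fold change of -0.49, where 0.141% of all genes tested were called lower. nr4a1, an orphan nuclear receptor gene, fell to 8.00 ± 1.12 CPM at 10 µg/L (SD, n = 5), against 50.8 ± 4.23 CPM in control (n = 4; edgeR adjusted p = 0.000936). fosab, a Fos gene of the AP-1 factor, fell to 42.1 ± 4.85 CPM, against 125 ± 25.9 CPM (edgeR adjusted p = 0.0157). The same 2 genes fell at 1 µg/L, by 4.62-fold and 4.26-fold (edgeR adjusted p = 0.0126 and 0.00561), and the other 8 did not pass, with a median of -0.63, where 0.0524% of all genes were called lower. In the 0.1 µg/L group 0 of 10 passed (median -0.12), as did 0% of all genes tested. The lowest unadjusted p-values there were those of egr1 and ptgs2b, at log2 fold changes of -0.51 and 0.62 (edgeR adjusted p = 0.27 and 0.318). The list was chosen with earlier results of these data known, so these counts are no independent support.

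Genes of the cell cycle step that BTG and TOB proteins act on did not pass either. Of 18 measured genes of G1 control, from 22 listed, 0 passed at 0.1, 1 or 10 µg/L, with medians of -0.45, -0.14 and -0.03. Since 0%, 0.0681% and 0.225% of all genes tested were called at these concentrations, 0 of 18 does not set this list apart. The listed genes ccnd2b, ccnd3, e2f4 and ccne1 were not among those tested. ccnd1, which encodes cyclin D1, averaged 113 ± 12.1 CPM at 10 µg/L (SD, n = 5) and 136 ± 24.0 CPM in control (n = 4; edgeR adjusted p = 0.655), and cdkn1bb, a gene of the inhibitor p27, was at a log2 fold change of 0.19 (0.798). At 1 µg/L the lowest unadjusted p-values were those of rbl2 and e2f1 (log2 fold change -0.46 and -1.33, edgeR adjusted p = 0.998 each), and at 0.1 µg/L those of rbl2 and cdkn1ca (-0.58 and -0.50, edgeR adjusted p = 0.214 and 0.217).

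Of 18 measured proliferation markers, from 20 listed, 0 passed at 0.1, 1 or 10 µg/L, with medians of 0.23, -0.17 and 0.31. Among all genes tested the shares called were 0%, 0.0681% and 0.225%, so 0 of 18 does not set these markers apart. plk1 and rrm2 were listed but not tested. At 10 µg/L the cyclin B genes ccnb2 and ccnb1 were at 0.96 and 0.81 (edgeR adjusted p = 0.449 and 0.493). The replication helicase genes mcm6 and mcm5 were at -1.06 and -0.87 at 1 µg/L (edgeR adjusted p = 0.72 and 0.985). tyms, a thymidylate synthase gene, and mcm7 were at 0.93 and 0.38 at 0.1 µg/L (edgeR adjusted p = 0.247 and 0.254).

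**Figure D5:**
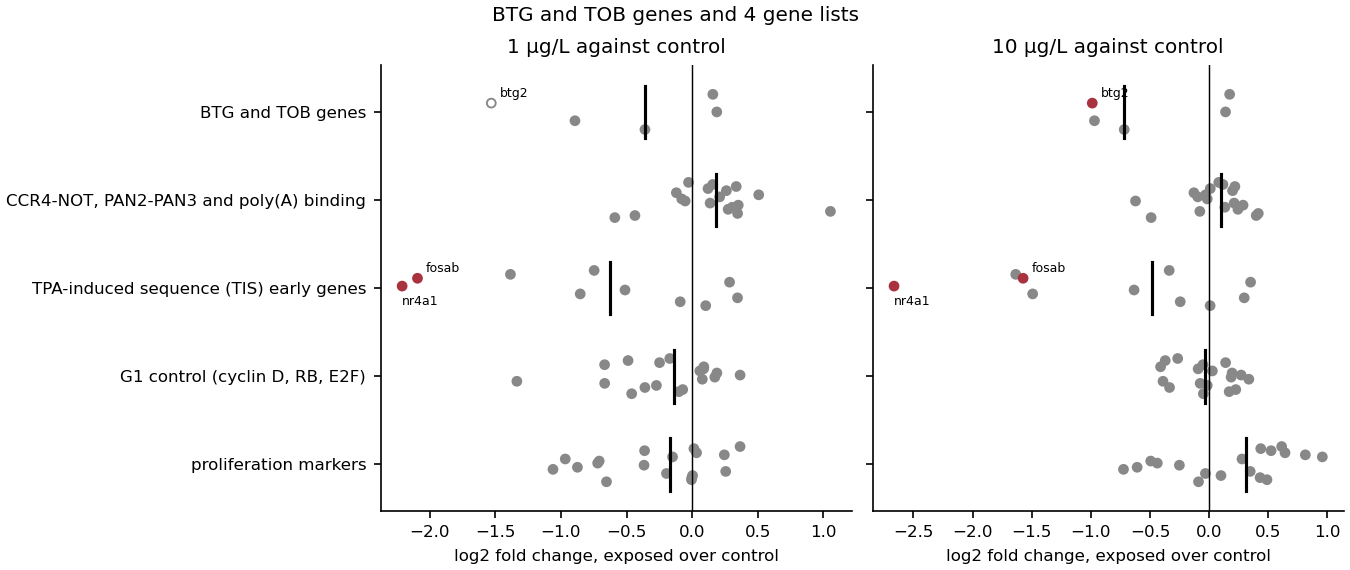
Log2 fold change over control (horizontal axes) at 1 µg/L (left) and 10 µg/L (right) for the 5 BTG and TOB genes and the measured genes of 4 lists. Each point is a gene, red where the edgeR adjusted p was below 0.05, the vertical bar is the median, and the open point is btg2 at 1 µg/L, which is shown without a test. nr4a1 and fosab are red in both panels, btg2 is red at 10 µg/L, and the medians of the other 3 lists lie between -0.17 and 0.31.

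The annotation in the tables gives a BTG domain to 2 more genes. si:dkey-79d12.5 (ENSDARG00000040284), described there by likeness to BTG3, had 3 to 29 reads per library at 10 µg/L and 22 to 85 in control, and its log2 fold change of -1.45 did not pass (SE 0.46, edgeR adjusted p = 0.286). The control range is wide, since control library 5 held 22 reads and the other control libraries 76 or more. si:dkey-42i9.4 (ENSDARG00000008049), described by likeness to BTG1, averaged 60.1 ± 10.4 CPM at 10 µg/L (SD, n = 5) and 51.6 ± 5.70 CPM in control (n = 4), with an edgeR adjusted p of 0.89.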

How the data were processed

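The authors deposited 3 tables, 1 per concentration, each holding raw read counts of the exposed libraries beside the same control columns. Per the submitters' processing notes, tools included HISAT2, fastp, DESeq2 and featureCounts, on the GRCz11 build. Tool versions, the strand setting and the annotation release were not stated in the sources used here. The deposited log2 fold change, p-value and adjusted p-value of the authors' own comparison were copied only where named, and gene length was taken from the tables.

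The tables were joined by gene identifier, and 10528 values of exposed libraries were set to 0 because their table lacked the gene. The control counts were the same in all 3 tables, 0 columns of counts were left unmatched, and the control and 1 µg/L columns could be assigned to a group but not to a titled sample. Genes kept by filterByExpr (19092) were scaled by TMM. The quasi-likelihood F test of edgeR 4.0.16 in R 4.3.3 was fitted robustly to all 16 libraries, with 12 residual degrees of freedom. Benjamini-Hochberg adjustment ran over every gene in the fit, and calls needed an adjusted p below 0.05. Log2 CPM used a prior count of 2, and the SE came from the F statistic. The pipeline was tested on simulated data. Alternatives used DESeq2 1.42.0, limma 3.58.1 and other settings given in the closing section. The highest correlation between libraries across genes was 0.9741, so none was a duplicate.

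The members, lists, marker lists and tests were chosen with earlier results of these data known. All members are named, as are called genes of each list or otherwise the 2 with the lowest p, the 8 genes closest to btg2 and the 3 closest to each other member, leaving out placeholder names. A further gene list is not reported here.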

Additional observations from a re-analysis of the deposited data

Results flagged for a closer look

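Of 15 sets of a member and a group of 4 or 5 libraries, 3 held a library far from the rest by Dixon's test at the 95% level, where chance marks about 1 in 20. btg2 was at 123 CPM and tob1a at 417 CPM in library 5 at 1 µg/L, where the other 3 libraries of the group held 60.4 to 67.0 and 161 to 190 CPM. btg1 was at 511 CPM in library 2 at 1 µg/L, below the 666 to 696 CPM of the other 3.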

How the results depend on the processing

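At 10 µg/L 43 genes were called (16 higher and 27 lower), against 249 by DESeq2 (109 higher and 140 lower), 157 in the 2 groups alone (41 and 116), 80 without libraries 1 and 2 at 0.1 µg/L (39 and 41) and 10 to 131 with 1 library left out, the extremes being control library 3 and library 5 at 1 µg/L. At 1 µg/L 13 were called, against 61 by DESeq2, 22 by limma-voom, 6 by library size only, 6 in the 2 groups alone and 5 to 105 without 1 library, the highest when that same library 5 was left out. At 0.1 µg/L 0 were called, against 1432 by DESeq2 and 0 to 6256 without 1 library, the last without library 3. The adjusted p of btg2 at 10 µg/L was 0.0646 by library size only and 0.00148 to 0.141 without 1 library. Its log2 fold change at 1 µg/L was -1.84 to -1.42 without 1 library and its adjusted p at 0.1 µg/L 0.704 to 0.986, with the direction turned without library 3 (0.986). Also turned at 0.1 µg/L were btg3 by library size only (0.407) and btg1 without libraries 1 and 2 (adjusted p = 1). The cause was not tested. In the other alternatives, which included DESeq2's size factors, no filter and a minimum mean of 1 CPM, each member kept its direction at each concentration, apart from the fit with the block.

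Same-numbered libraries did not deviate together more than others. Over 18 same-numbered pairs r ran from -0.44 to 0.45 (median -0.102), with 5 above 0.1. Over 77 differently numbered pairs it ran from -0.498 to 0.465 (median 0.015), with 28 above 0.1. In all, 4 of 16 libraries correlated best with their own number. With the replicate number as a block 8 genes were called at 10 µg/L and 6 at 1 µg/L, and the adjusted p of btg2 was 0.0869 at 10 µg/L and 0.825 at 0.1 µg/L, with a log2 fold change of 0.09 there. At the depth of these libraries btg3 had 274 to 583 reads per library and the other members 664 or more.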
